A study of Mus musculus with 18 samples.

Results

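Angiopoietins, angiopoietin-like proteins and the stress-secreted hormones Gdf15 and Fgf21 were followed through 18 RNA-seq libraries of mouse mesenchymal stem cells (MSC). The members were the rows of the deposited table that matched 8 gene symbols, Angpt1, Angpt2, Angptl1, Angptl2, Angptl4, Angptl6, Gdf15 and Fgf21, of 54347 genes in all. They were selected on their names with the levels and fold changes of these libraries already known, so the fitted values of the members are given as a description. Cells came from the bone marrow of male C57BL/6J mice, pooled from several animals into a primary culture, and each of the 6 groups held 3 separate preparations. In the first experiment cells received no treatment (control), CK666, which blocks the Arp2/3 complex and with it the branching of actin, or the filament-capping compound cytochalasin D (CytoD). In the second experiment every culture was transfected, either with control siRNA (siControl), with an siRNA against the actin-related protein Arp4 (siArp4), or with the Arp4 siRNA followed by CK666 (siArp4+CK666). None of the 6 groups was given both control siRNA and CK666. Wherever the CK666 effect is set between the experiments, transfection and knockdown therefore cannot be told apart.

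Angiopoietins are secreted ligands of the endothelial receptor Tie2, the product of Tek: angiopoietin 1 activates it and keeps vessels quiet, and angiopoietin 2 can block it or activate it depending on context. Angiopoietin-like proteins mostly share the coiled-coil and fibrinogen-like build of angiopoietins but do not bind Tie2, and several act on lipid metabolism or inflammation. GDF15 and FGF21 are hormones that many cell types release under stress, and transcription of both genes is known to rise with the integrated stress response, in which kinases that phosphorylate eIF2α raise the translation of the transcription factor ATF4.

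Libraries held 18075610 to 24733212 estimated counts. Levels are normalized counts (counts divided by the DESeq2 size factor of the library within its experiment) unless another scale is named. Actl6a, which encodes Arp4, stood at 717 to 1158 normalized counts (size factors of all 18 libraries) in siControl, at 19.5 to 58.6 in siArp4 and at 9.47 to 23.2 in siArp4+CK666. In the first experiment it stood at 861.7 to 935.4 in control, at 724 to 913.6 in CK666 and at 556.5 to 607.8 in CytoD. On the same scale the summed level of 10 MSC markers ran from 102355 to 108570 in control, 44224 to 51288 in CK666, 167699 to 177359 in CytoD, 82008 to 115842 in siControl, 108634 to 117473 in siArp4 and 58486 to 64186 in siArp4+CK666. Between 7 and 8 of the 10 reached a mean of 10 in a group, and Thy1 had no count in any library. Cxcl12 and Col1a1 made up most of this sum and did not move together. With CytoD Cxcl12 was higher (log2 fold change 1.64, adjusted p = 3.13e-109) and Col1a1 differed by -0.11 (adjusted p = 0.349), while with Arp4 siRNA Cxcl12 was lower (-2.41, adjusted p = 1.33e-55) and Col1a1 higher (1.70, adjusted p = 1.56e-11). The summed level of 6 endothelial markers was at most 234 in any library, with Cdh5, Emcn and Erg at 0 throughout. It ran from 17.8 to 57.9 in control and from 68.9 to 234 in CK666. DESeq2 called Vwf higher in CK666 (1.99, adjusted p = 0.000643), where edgeR called 0 of the 6. Kdr was higher in siArp4+CK666 against siControl (2.67, adjusted p = 0.000396). The sum of 6 haematopoietic and macrophage markers was at most 368, with Ptprc and Itgam at no more than 1.08. Cd68 was higher in CytoD (1.42, adjusted p = 1.56e-06) and Cd14 lower in CK666 (-1.24, adjusted p = 4.31e-06). The summed level of 6 adipocyte markers moved with the groups, from 58.9 to 118 in control, 243 to 463 in CK666, 658 to 841 in CytoD, 147 to 279 in siControl, 6.64 to 23.3 in siArp4 and 136 to 202 in siArp4+CK666. The part of these shifts in the results was not tested, and in bulk RNA fewer cells that express a gene cannot be told apart from less RNA per cell.

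Because Angptl6, Gdf15 and Fgf21 were highest in the CK666 group, the sequence before their starts is shown. The windows come from RefSeq on GRCm38.p6, minus strand, read 5′ to 3′ towards the gene, with bases inside the GENCODE gene left out: 233 bases for Angptl6 (chr9:20879728-20879960), 250 for Gdf15 (chr8:70632457-70632706, the window that adjoins the GENCODE gene) and 250 for Fgf21 (chr7:45615491-45615740). Capitals mark a match to the C/EBP-ATF response element TGATGNAA, the kind of site that ATF4 and its partners bind; a match in either strand was counted.
Angptl6: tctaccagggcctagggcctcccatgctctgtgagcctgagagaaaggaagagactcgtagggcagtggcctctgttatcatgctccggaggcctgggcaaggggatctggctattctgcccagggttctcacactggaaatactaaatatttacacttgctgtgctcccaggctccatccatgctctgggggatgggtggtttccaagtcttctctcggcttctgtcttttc
Gdf15: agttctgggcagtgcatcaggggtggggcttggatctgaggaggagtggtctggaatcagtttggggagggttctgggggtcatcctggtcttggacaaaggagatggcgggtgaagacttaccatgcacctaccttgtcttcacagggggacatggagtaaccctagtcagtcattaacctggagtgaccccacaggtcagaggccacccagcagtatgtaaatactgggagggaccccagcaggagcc
Fgf21: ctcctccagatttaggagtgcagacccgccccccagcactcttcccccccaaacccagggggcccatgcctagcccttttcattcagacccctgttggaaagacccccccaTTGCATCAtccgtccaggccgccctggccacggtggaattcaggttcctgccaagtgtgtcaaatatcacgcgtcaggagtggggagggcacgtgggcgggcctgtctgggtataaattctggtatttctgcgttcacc
Fgf21 held 1 match, TGATGCAA on the strand opposite to the printed one, at positions -139 to -132 counted from the start. Windows in the table ran from 250 bases before to 50 after the start and were found for 5 of the 8 members (Angptl1, Angptl2, Angptl6, Gdf15 with 2 windows, and Fgf21). Only the Fgf21 window among them held the element, against 4.51% of 27025 genes with a window. Among 15 genes of the integrated stress response, 5 held it (Atf3, Trib3, Chac1, Asns and Nupr1). The hypoxia response core ACGTG, found in 21.78% of genes, occurred 2 times in the Fgf21 window and 2 times in the further window of Gdf15, each pair being the overlapping readings of both strands at 1 place. The TEAD motif GGAATG, in 16.58% of genes, occurred 1 time in that Gdf15 window, and the CArG box of SRF, in 1.81%, in none of the members' windows. A match is a description of letters, not of binding.

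Per length of exon (FPKM computed here from the counts, with exon lengths from the annotation), the 8 genes spanned the range from silent to abundant. In control cells Gdf15 reached 49.2, Angptl2 39.4, Angpt1 39.1 and Angptl4 27.4, each with between 962 and 1834 genes of the 20689 above 0 at a higher level. Angpt2 at 0.278 had 12493 of these genes above it and Angptl6 at 0.139 had 13780, and Fgf21 and Angptl1 had no count. In CK666 cells Gdf15 rose to 368 on this scale, with 124 of 20216 genes above it. Angptl4 held the highest level per length of the 8 genes in siArp4+CK666 cells, at 127, with 420 genes of 20185 above it.

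**Figure D1:**
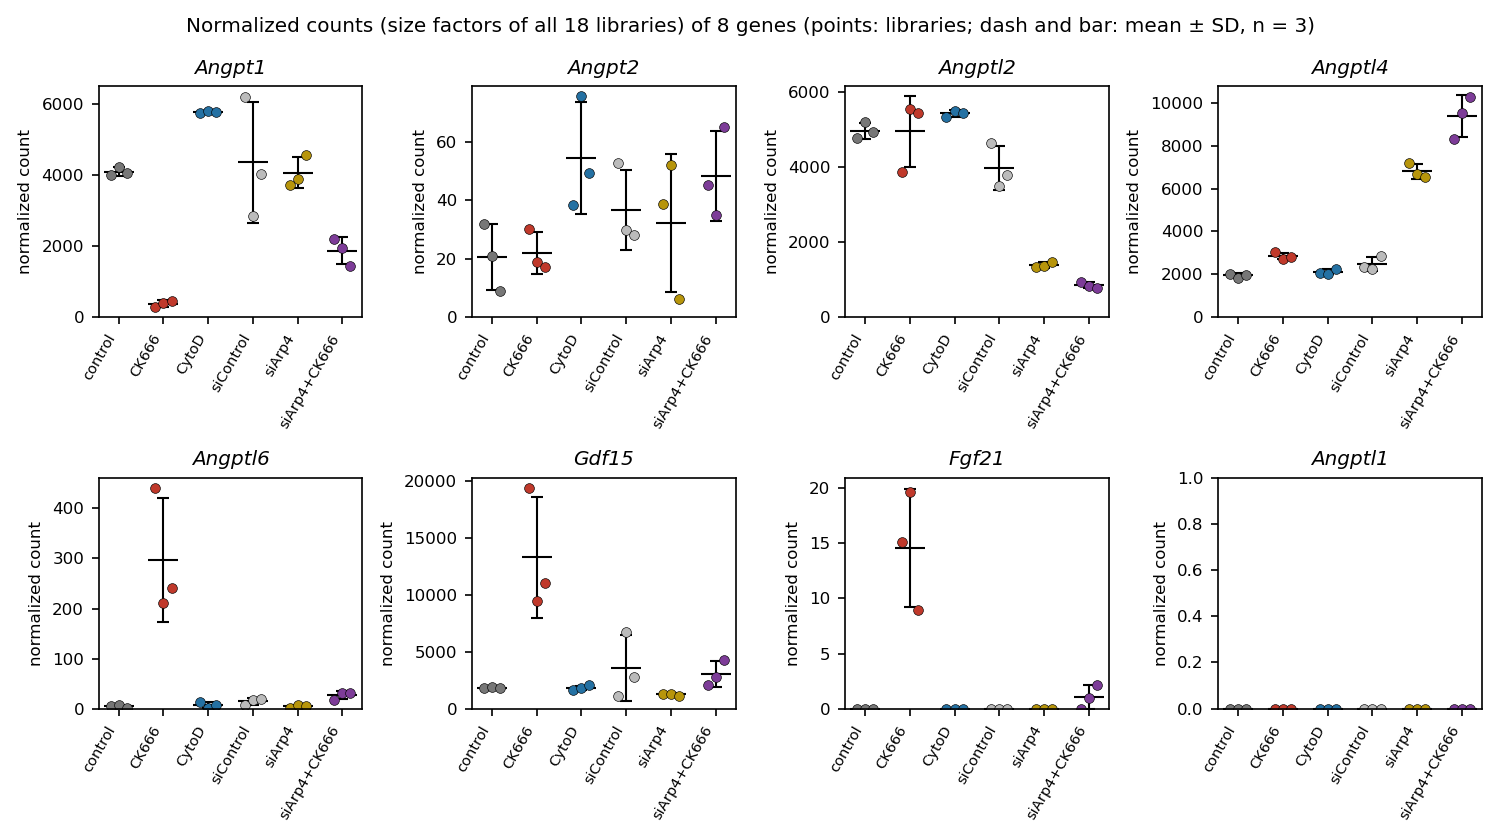
Normalized counts, with size factors of all 18 libraries, of each gene (y axis, linear, own range) in the 6 groups (x axis); points are libraries, the dash is the mean and the bar the SD (n = 3). The CK666 libraries stand apart in Angpt1 (low) and in Angptl6, Gdf15 and Fgf21 (high), the siArp4 and siArp4+CK666 libraries in Angptl2 (low) and Angptl4 (high), and Angptl1 is at 0 throughout.

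Angpt1 (chromosome 15, 42424723 to 42676977, minus strand; all coordinates are GRCm38 from GENCODE vM21), which encodes the Tie2 agonist angiopoietin 1, was the member that fell with CK666. It stood at 4112, 4337 and 4143 normalized counts in control, at 291, 416 and 479 in CK666 and at 5877, 5939 and 5912 in CytoD. The 3 groups did not overlap, and CK666 cells kept 9.42% of the control mean. In the transfected cells it stood at 6219, 2758 and 4011 in siControl, at 3629, 3796 and 4444 in siArp4 and at 2205, 1925 and 1405 in siArp4+CK666. The siArp4+CK666 libraries lay below all others of that experiment, while siArp4 lay within the wide range of siControl.

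The fitted log2 fold change of Angpt1 was -3.41 (SE 0.16, DESeq2 adjusted p = 9.85e-104) in CK666 against control. In CytoD against control it was 0.49 (SE 0.15, adjusted p = 0.00392), under the minimum of 1 that a call required. In siArp4 against siControl the difference was -0.13 (SE 0.31, adjusted p = 0.794). In siArp4+CK666 it was -1.23 (SE 0.31, adjusted p = 0.000403) against siControl and -1.10 (SE 0.31, adjusted p = 0.00483) against siArp4. The first of these was no longer called without siControl replicate 1, at -0.87. The second was lost in edgeR (FDR = 0.0459) and without siControl replicate 3, any siArp4 library or siArp4+CK666 replicate 2 or 3, with adjusted p from 0.0111 to 0.0597. A gene annotated antisense to Angpt1, Gm17473, shares 737 exonic bases with it and had a mean count of 3.9, and unstranded reads do not separate the pair.

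Angpt2 (chromosome 8, 18690263 to 18741562, minus strand), the context-dependent Tie2 ligand, was low in every library. It stood at 32.9, 21.4 and 9.31 in control, at 31.4, 19.4 and 17.7 in CK666 and at 39.3, 77.4 and 50.5 in CytoD. CytoD libraries lay above the other 6, with a difference from control of 1.39 (log2, SE 0.50, adjusted p = 0.0172), which missed the threshold. Without control replicate 1 it was 1.85 and passed (adjusted p = 0.00533). In transfected cells it ran from 28.0 to 52.8 in siControl, 6.01 to 50.8 in siArp4 and 34.3 to 63.2 in siArp4+CK666, and the groups overlapped. The gene lies within the span of Mcph1 on the other strand, with no shared exonic base, and Mcph1 had a mean count of 426.1, so intronic reads of Mcph1 could enter these low counts.

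Angptl1 (chromosome 1, 156838562 to 156861078, plus strand) had 0 counts in each of the 18 libraries. A count of 0 allows up to 3 counts a library and covers counting error only. Angptl2 (chromosome 2, 33216069 to 33247717, plus strand), a secreted factor known in inflammation and matrix remodelling that acts through integrin α5β1, was abundant and fell with Arp4 siRNA. It stood at 4925, 5342 and 5083 in control, at 4029, 5762 and 5659 in CK666 and at 5473, 5649 and 5586 in CytoD. CytoD libraries lay just above control and CK666 libraries lay on both sides of it.

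In the second experiment Angptl2 stood at 4665, 3412 and 3793 in siControl, at 1303, 1344 and 1445 in siArp4 and at 938, 834 and 764 in siArp4+CK666. The 3 groups did not overlap, and siArp4 cells held 34.5% and siArp4+CK666 cells 21.4% of the siControl mean. The log2 fold change was -1.54 (SE 0.17, adjusted p = 5.25e-17) in siArp4 and -2.23 (SE 0.18, adjusted p = 4.67e-35) in siArp4+CK666. Between siArp4+CK666 and siArp4 it was -0.69 (SE 0.18, adjusted p = 0.00127), under the minimum fold. Against control, the difference in CK666 was 0.01 (SE 0.14) and in CytoD 0.12 (SE 0.14). Angptl2 lies in the span of Ralgps1 on the other strand, with no shared exonic base and a mean count of 123.2 for Ralgps1.

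Angptl4 (chromosome 17, 33773750 to 33781830, minus strand), an inhibitor of lipoprotein lipase and a known target of PPAR, glucocorticoid and hypoxia signalling, rose with Arp4 siRNA. It stood at 2374, 2176 and 2864 in siControl, at 7037, 6530 and 6385 in siArp4 and at 8380, 9406 and 10004 in siArp4+CK666. No groups overlapped, with siArp4 at 2.69 and siArp4+CK666 at 3.75 times the siControl mean. The log2 fold change was 1.43 (SE 0.16, adjusted p = 1.75e-17) in siArp4 and 1.91 (SE 0.16, adjusted p = 4.79e-31) in siArp4+CK666. Between these 2 groups it was 0.48 (SE 0.16, adjusted p = 0.0225) and not called.

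In untransfected cells Angptl4 stood at 2089, 1889 and 2041 in control, at 3163, 2829 and 2899 in CK666 and at 2109, 2086 and 2310 in CytoD. CK666 libraries lay above the other 6 at 1.48 times the control mean. The log2 fold change of 0.56 (SE 0.10, adjusted p = 3.42e-08) passed the adjusted p and not the minimum fold. In CytoD it was 0.11 (SE 0.10, adjusted p = 0.378).

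Angptl6 (chromosome 9, 20873808 to 20879727, minus strand), known as angiopoietin-related growth factor, a liver-secreted protein in energy metabolism, went from near nothing to a moderate level with CK666. It stood at 5.80, 6.82 and 1.03 in control, at 458, 218 and 250 in CK666 and at 12.8, 0.968 and 8.24 in CytoD. CK666 libraries lay far above both other groups, which overlapped, and their mean was 67.8 times that of control. The log2 fold change was 6.07 (SE 0.58, adjusted p = 1.04e-23) in CK666 and 0.65 (SE 0.66, adjusted p = 0.469) in CytoD.

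With transfection Angptl6 stayed low, at 6.71, 16.4 and 19.6 in siControl, at 1.68, 6.48 and 6.01 in siArp4 and at 17.98, 30.5 and 30.6 in siArp4+CK666. The siArp4 libraries lay below siControl, and siArp4+CK666 lay above siArp4 and overlapped siControl. The difference between siArp4+CK666 and siArp4 was 2.51 (log2, SE 0.69, adjusted p = 0.00356). It was lost in edgeR (FDR = 0.032) and without any siArp4 library or siArp4+CK666 replicate 2 or 3, with adjusted p from 0.0144 to 0.0648. Against siControl the difference was -1.61 (SE 0.71, adjusted p = 0.0639) in siArp4 and 0.90 (SE 0.62, adjusted p = 0.253) in siArp4+CK666. Angptl6 shares 265 exonic bases with A230050P20Rik on the other strand, whose mean count was 0.2.

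Gdf15 (chromosome 8, 70629393 to 70632456, minus strand), the hormone that curbs appetite through the hindbrain receptor GFRAL, was already abundant in control and rose further with CK666. It stood at 1840, 1913 and 1889 in control, at 20138, 9793 and 11473 in CK666 and at 1700, 1858 and 2086 in CytoD. CK666 libraries lay above all others, with a mean 7.34 times that of control, and differed among themselves, replicate 1 being highest. The log2 fold change was 2.88 (SE 0.22, adjusted p = 6.65e-36) in CK666 and 0.00 (SE 0.22, adjusted p = 0.999) in CytoD.

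In the transfected cells Gdf15 stood at 1101, 6579 and 2814 in siControl, at 1285, 1277 and 1081 in siArp4 and at 2096, 2774 and 4178 in siArp4+CK666. The siControl libraries spread widely and overlapped both other groups. The log2 fold change in siArp4 was -1.53 (SE 0.52, adjusted p = 0.0125), which missed the threshold. Without siControl replicate 1 it was -1.95 and called (adjusted p = 8.41e-07), and over all single libraries left out it ran from -1.95 to -0.70, the end nearest 0 being without siControl replicate 2. In siArp4+CK666 it was -0.21 (SE 0.52, adjusted p = 0.785) against siControl and turned to 0.62 without siControl replicate 2. Against siArp4 it was 1.31 (SE 0.52, adjusted p = 0.0716), and siArp4+CK666 libraries lay above siArp4. That difference was called when only these 2 groups were fitted (1.32, adjusted p = 5.05e-07) and without siControl replicate 1 (adjusted p = 0.000686) or 2 (adjusted p = 0.00142).

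Fgf21 (chromosome 7, 45613886 to 45615490, minus strand), a hormone of fasting and amino acid shortage, was detected almost only with CK666. It had 0 counts in all control, CytoD, siControl and siArp4 libraries. It stood at 15.7, 20.4 and 9.30 in CK666, and at 0, 0.954 and 2.11 in siArp4+CK666. With a floor of 3 counts a library for the control, the CK666 mean of 15.1 was at least 5.09-fold higher. DESeq2 called the gene in CK666 against control (adjusted p = 0.00034). It entered the test only through the CK666 libraries, and edgeR's expression filter did not keep it. Its adjusted p was not computed without control replicate 1, CK666 replicate 1 or CK666 replicate 2, and in the test against a log2 fold change of 1 it was 0.0293.

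Set side by side, 4 members were called in CK666 against control, 3 higher (Angptl6, Gdf15, Fgf21) and 1 lower (Angpt1), where 11.0% of 14597 tested genes were called, 4.89% higher and 6.06% lower. Fgf21 passed the filter on low values only through the CK666 libraries and so had to differ, and edgeR, which did not keep it, called the other 3. Nothing about the members is read from their share, since they were chosen with these values known. Of the 8 members 7 were tested there, since Angptl1 had no counts, and in every comparison without the CK666 group Fgf21 was not tested either, which left 6. In CytoD against control DESeq2 called 0 of 6 members and edgeR called 0, with 2 at an unadjusted p under 0.05 (Angpt1 and Angpt2), where 9.12% of genes were called, 4.80% higher and 4.32% lower. In siArp4 against siControl 2 members were called (Angptl2 lower, Angptl4 higher), where 16.2% of genes were called, 6.69% higher and 9.49% lower. In siArp4+CK666 against siControl 3 were called (Angpt1 and Angptl2 lower, Angptl4 higher), where 20.4% were called, 8.06% higher and 12.4% lower. In siArp4+CK666 against siArp4 2 were called (Angpt1 lower, Angptl6 higher), where 5.75% were called, 1.63% higher and 4.12% lower. The comparisons within an experiment share their control libraries.

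**Figure D2:**
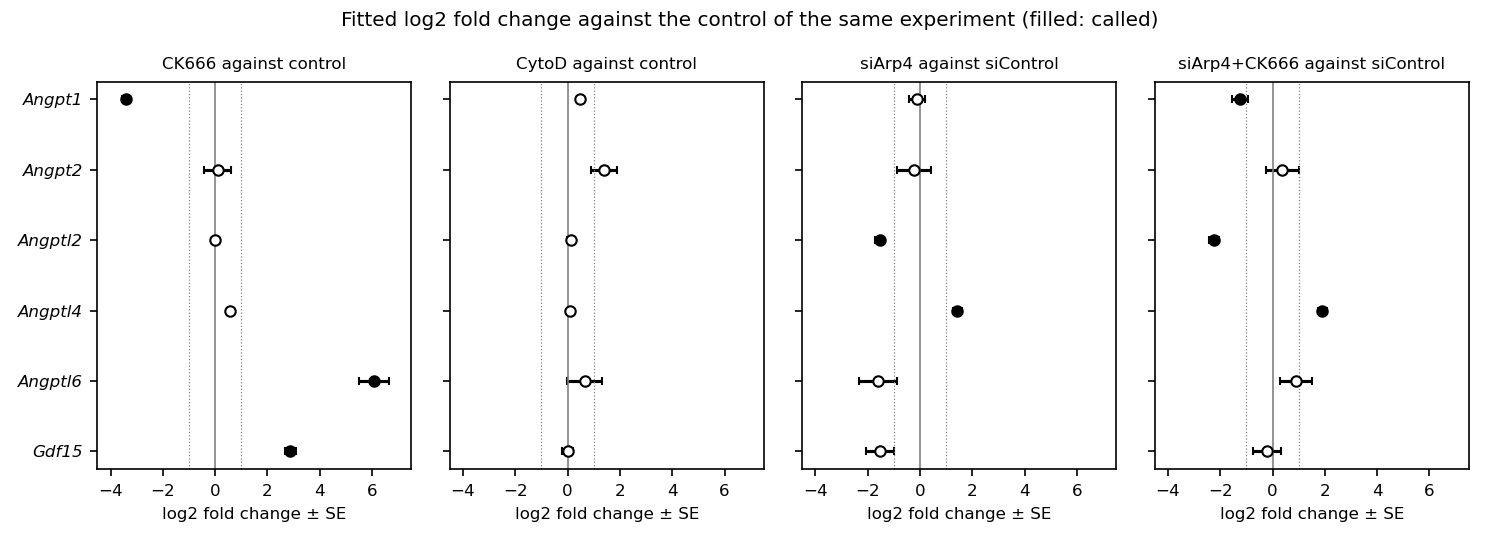
Fitted log2 fold change ± SE (x axis) of the 6 members tested in every comparison (rows) in each comparison with a control; filled points were called and dotted lines mark the minimum log2 fold change of 1. CK666 moved Angpt1, Angptl6 and Gdf15, both siArp4 groups differed in Angptl2 and Angptl4, Angpt1 was also called in siArp4+CK666, and no point is filled for CytoD.

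CK666 was also set directly against CytoD, which shows only where the groups given these compounds differed. Whether other disturbances of actin share a response was not tested. Angpt1 was lower (log2 fold change -3.90, adjusted p = 2.03e-136), and Angptl6 (5.42, adjusted p = 2.41e-22) and Gdf15 (2.87, adjusted p = 6.2e-36) were higher. DESeq2 called Fgf21 too (adjusted p = 0.000349), and no fold is given because its level was 0 in CytoD. With Fgf21, 4 members were called where 11.8% of genes were, 5.08% higher and 6.74% lower. Fgf21 entered this test as well only through the CK666 libraries and so had to differ. Its adjusted p was not computed without CK666 replicate 1, 2 or 3, and was 0.0259 in the test against a log2 fold change of 1. edgeR, whose filter did not keep it, called the other 3. Angptl4 was 0.45 higher (adjusted p = 1.31e-05), under the minimum fold, and Angpt2 was -1.29 (adjusted p = 0.0265) and missed the threshold. Angptl2 differed by -0.11.

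How far the CK666 effect differed between cells with Arp4 siRNA and untransfected cells was tested as an interaction over all 18 libraries. Angpt1 fell by 3.41 with CK666 in untransfected cells and by 1.10 in siArp4 cells, an interaction of 2.30 (SE 0.35, adjusted p = 3.92e-09). Angptl6 rose by 6.07 and by 2.51, an interaction of -3.56 (SE 0.93, adjusted p = 0.0024). The Angptl6 call was lost in edgeR (FDR = 0.039) and without any of 5 single libraries, control replicate 3, CK666 replicate 1, siArp4 replicate 2 or 3 or siArp4+CK666 replicate 1, with adjusted p from 0.0103 to 0.022. These 2 members were called where 4.40% of genes were, 1.89% higher and 2.51% lower. Gdf15 differed by -1.56 (SE 0.62, adjusted p = 0.0794), and was called without siControl replicate 1 (adjusted p = 0.00423) or 2 (adjusted p = 0.00559). Angptl2 differed by -0.71 (SE 0.20, adjusted p = 0.00779), under the minimum fold, Angptl4 by -0.09 and Angpt2 by 0.49.

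**Figure D3:**
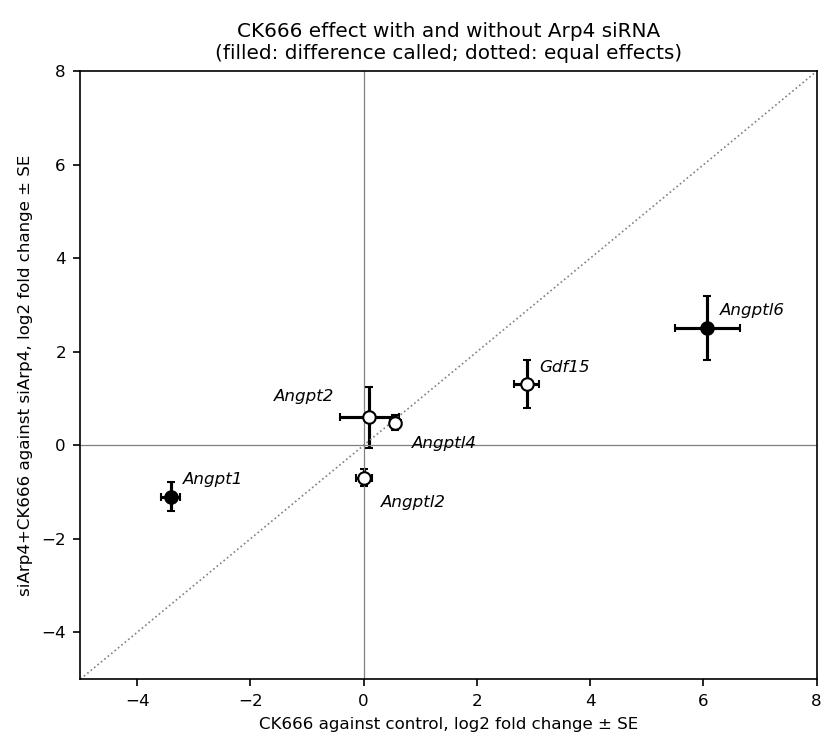
Log2 fold change ± SE with CK666 in untransfected cells (x axis) and in siArp4 cells (y axis) for 6 members; filled points are members with a called interaction and the dotted line marks equal effects. Angpt1 and Angptl6 lie nearer 0 on the y axis than on the x axis, and Gdf15 does so without a call.

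The order of the 6 groups differed from member to member on the scale of all 18 libraries. For Gdf15 CK666 stood first at a mean of 13293 normalized counts, followed by siControl at 3560 and siArp4+CK666 at 3064, which overlapped, CytoD at 1837 and control at 1830, which overlapped, and siArp4 at 1245. For Angptl6 CK666 at 297 stood apart, and each of the other 5 groups, from siArp4+CK666 at 26.8 to control at 4.43, overlapped its neighbour. For Angpt1 CytoD at 5770, siControl at 4350, control at 4085 and siArp4 at 4056 overlapped in turn, and siArp4+CK666 at 1863 and CK666 at 381 each stood apart. For Angptl4 siArp4+CK666 at 9386 and siArp4 at 6818 stood apart above CK666 at 2856 and siControl at 2490, which overlapped. For Angptl2 the lowest groups, siArp4 at 1398 and siArp4+CK666 at 855, stood apart from each other and from the rest. Levels across the experiments also carry any difference between untransfected and transfected cells.

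Of the other family genes described here, Angpt4, the mouse Tie2 ligand related to angiopoietin 1, was expressed, and Angptl7 and Angptl8 were at or near 0. Angpt4 stood at 607 ± 29.1 in control, 569 ± 88.6 in CK666 and 841 ± 62.3 in CytoD (mean ± SD, n = 3). In the second experiment it stood at 1046, 1704 and 1284 in siControl, at 231, 230 and 222 in siArp4 and at 220, 298 and 311 in siArp4+CK666. Both knockdown groups lay below siControl, with log2 fold changes of -2.56 (adjusted p = 1.26e-24) and -2.28 (adjusted p = 4.62e-20). Angptl7 and Angptl8 reached at most 2.16 and 5.15 normalized counts in any library.

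Receptors and binding partners of the members were present for some ligands and missing for others. On the scale of all libraries, Tek was at a mean of at most 1.70 in any group, and Tie1, the hindbrain GDF15 receptor gene Gfral and Gpihbp1, the endothelial anchor of lipoprotein lipase, had no count. Fgfr1, the FGF21 receptor, ranged from 4531 to 6826, while its co-receptor gene Klb reached at most 6.46, in CK666. Lpl, the lipase that ANGPTL4 inhibits, ranged from 14387 in siArp4 to 67162 in siControl, and Itgb1, a subunit of the ANGPTL2 receptor, from 7639 to 23817.

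Of the 17 receptor and partner genes 9 were tested in each comparison with a control, and in CK666 DESeq2 and edgeR each called 0 of them, with 2 higher and 4 lower at an unadjusted p under 0.05. With CytoD Lpl was higher (1.67, adjusted p = 4.89e-132), and Itgav (-1.23, adjusted p = 6.11e-14) and Ret, the signalling partner of GFRAL (-1.14, adjusted p = 5.59e-15), were lower. With Arp4 siRNA Itga5, the α5 subunit of that integrin, was higher (2.13, adjusted p = 1.47e-39), and 3 were lower, among them Lpl (-2.24, adjusted p = 1.34e-60) and Ret (-2.00, adjusted p = 4.11e-16). In siArp4+CK666 against siControl Itga5 was higher (1.85, adjusted p = 4.59e-30), and Ret (-3.41, adjusted p = 1.34e-43) and Itgav (-1.25, adjusted p = 0.00439) were lower. edgeR called 1 higher and 1 lower there.

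Genes of the integrated stress response, to which Gdf15 and Fgf21 belong as targets, were higher in CK666. Of 15 listed genes, all tested, 10 were called higher and 0 lower in CK666 against control, by DESeq2 and by edgeR, with 2 lower at an unadjusted p under 0.05. The median log2 fold change was 1.43, beside 0.01 over all tested genes. The largest were Trib3, a feedback pseudokinase (4.66, adjusted p = 2.35e-169), Ddit3, which encodes the factor CHOP (4.32, adjusted p = 4.6e-105), and Atf3 (4.25, adjusted p = 1.66e-72). In CytoD 5 were lower, the largest being Chac1 (-2.15, adjusted p = 4.27e-25), Trib3 (-2.05, adjusted p = 2.2e-24) and Asns, asparagine synthetase (-1.47, adjusted p = 1.73e-40), and 0 were higher by DESeq2 or edgeR, with 1 higher at an unadjusted p under 0.05. The median there was -0.14, and Gdf15 differed by 0.00.

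In siArp4 against siControl 3 of the 15 were higher by DESeq2, Nupr1 (1.50, adjusted p = 1.37e-10), Atf3 (1.37, adjusted p = 2.19e-05) and Trib3 (1.15, adjusted p = 0.00308). edgeR called 2 higher, and the median was 0.11 beside -0.05 over all tested genes. In siArp4+CK666 against siControl 6 were higher, the largest being Atf3 (4.88, adjusted p = 3.25e-69), Trib3 (3.82, adjusted p = 8.96e-29) and Chac1 (2.51, adjusted p = 8.3e-18), with a median of 0.59. Gdf15 and Angptl6 were not called in either comparison. In the interaction 5 genes of the list were lower and 1 higher by DESeq2, and 4 lower and 1 higher by edgeR. Ppp1r15a (-3.31, adjusted p = 0.000139), Nupr1 (-3.17, adjusted p = 8.69e-23) and Ddit3 (-2.70, adjusted p = 1.45e-07) were lower. So were Trib3 (-1.99, adjusted p = 2.93e-06) and Chac1 (-1.39, adjusted p = 1.95e-05), while Atf5 was higher (1.22, adjusted p = 1.59e-05). Ddit3 stands next to Angptl6 and Gdf15 in likeness, and a link between these changes was not tested.

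**Figure D4:**
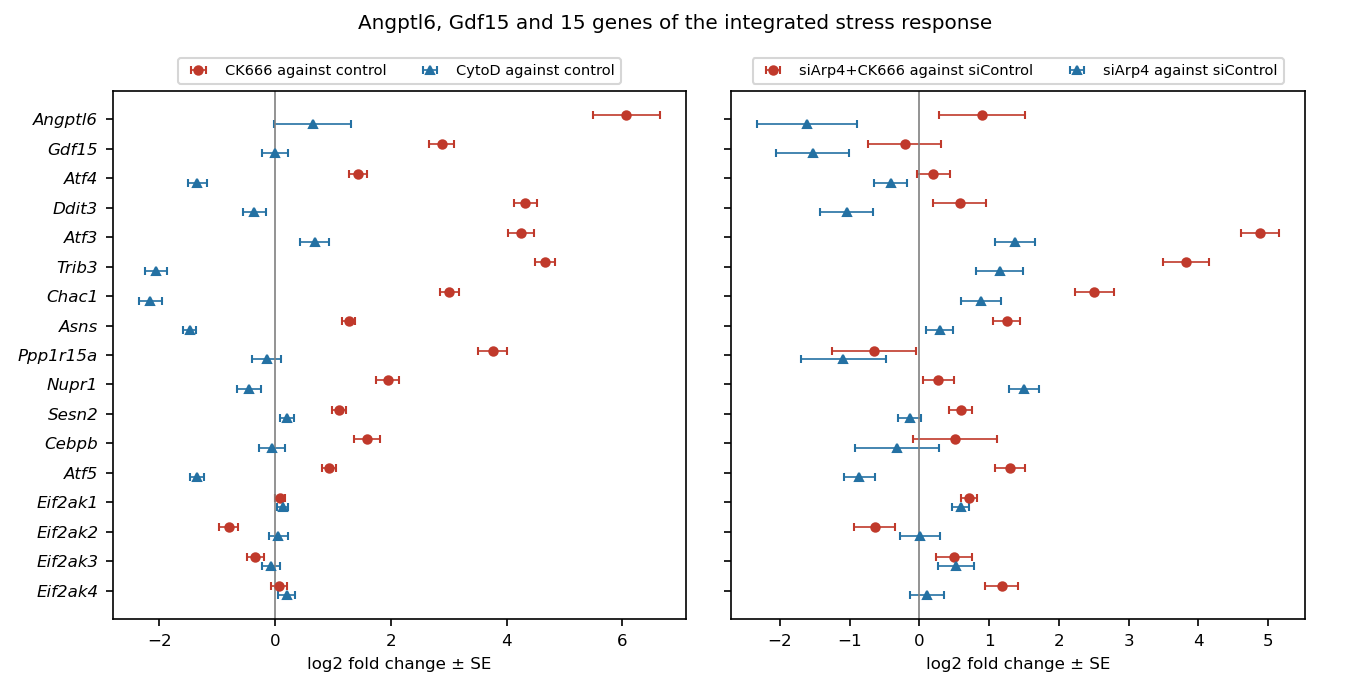
Log2 fold change ± SE (x axis) of Angptl6, Gdf15 and 15 genes of the integrated stress response (rows), left for CK666 (circles) and CytoD (triangles) against control, right for siArp4+CK666 (circles) and siArp4 (triangles) against siControl. In CK666 10 of the 15 were called higher along with Angptl6 and Gdf15, and on the right Atf3, Trib3 and Chac1 lie far to the right with siArp4+CK666 while Gdf15 lies near 0.

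Likeness to other genes was measured by Pearson's r over the 18 libraries on variance stabilized values, among genes whose normalized count averaged at least 100. The libraries fall into 6 groups and share depth and scaling, so r describes the pattern over groups and no p is given. Angptl6 was most like Ddit3 (r = 0.968), Cyb5r1 (0.965) and Jdp2 (0.943), and Gdf15 was most like Ddit3 (0.952), Repin1 (0.941) and Ppp1r15a, a phosphatase subunit that acts on eIF2α (0.939). Angpt1 was most like Rspo2, a Wnt agonist (0.969), Npr3, a natriuretic peptide receptor (0.958), and Pxylp1 (0.954). Angptl2 was most like Ankrd13a (0.985), Armcx2 (0.985) and B4galt6 (0.982). Angptl4 was most like Rraga, a small GTPase of amino acid sensing (0.991), Parp8 (0.983) and Chmp7 (0.983). Angpt2 reached only 0.685 with Ccdc157, 0.670 with Kbtbd11 and 0.661 with Enpp5.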

How the data were processed

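RNA-seq was unstranded and paired-end. The authors quantified reads with Salmon 1.2.1 against GENCODE vM25 on GRCm38 and deposited an unscaled estimated count for each gene and library. The step from transcripts to genes is not given in the sources used here. In all, 54347 genes were listed in 18 libraries, with totals of 18075610 to 24733212. Expected counts were rounded, which moved a total by at most 277, and tested with DESeq2 1.42.0 (R 4.3.3) by its two-sided Wald test, as in the methods of the study, with independent filtering at 0.01. Each experiment was fitted on its own 9 libraries, and the interaction over 18. A call required an absolute log2 fold change over 1 and a Benjamini-Hochberg adjusted p below 0.01 over all tested genes. Fold changes were not shrunken. edgeR 4.0.16 (quasi-likelihood), TMM scaling, a low-count filter (10 counts in 3 libraries), no fold minimum, a test against a log2 fold change of 1, a replicate block, fits of only the groups compared and single libraries left out were the alternatives. The fitting step was tested on simulated counts.

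The members and lists were chosen with earlier results of these data known. Named are the 8 members, other family genes (1 gene that the rule takes is not reported here), Actl6a, at most 3 called genes with the largest change per list and comparison with a control (mean normalized count of at least 100), and the 3 genes most like each member whose mean was at least 20. The lists of other secreted factors, p53 targets and PPAR, hypoxia and glucocorticoid targets are given in the closing section. The stress response genes in the interaction, marker genes and genes holding a promoter match were named outside that rule, after their values were seen. So were Lpl, Itgb1, Fgfr1, Klb, Tek, Tie1, Gfral and Gpihbp1 as levels, and Epas1, Pparg, Ppard, Fabp4 and Fkbp5 in siArp4. Symbols and coordinates came from GENCODE vM21 (GRCm38), which matched 54094 gene identifiers and not 253. Counts per kilobase used the union of exons in that annotation. Libraries came from separate preparations of a pooled culture, so p-values measure the spread between preparations. Intervals and floors cover counting error only.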

Additional observations from a re-analysis of the deposited data

Results flagged for a closer look

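The effect of CK666 on Angpt1 differed between the experiments by a tested interaction of 2.30 on the log2 scale (SE 0.35, DESeq2 adjusted p = 3.92e-09). CK666 lowered Angpt1 in 3 of 3 untransfected libraries below every control and in 3 of 3 siArp4 libraries below every siArp4 library without CK666. The value ran from 2.12 to 2.46 over single libraries left out. edgeR called it too (FDR 0.000632), and in the test against a log2 fold change of 1 its adjusted p was 0.0498, over the threshold of 0.01.

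The effect of CK666 on Angptl6 differed by -3.56 (SE 0.93, adjusted p = 0.0024), and ran from -3.99 to -3.10 over single libraries left out. This call was lost in edgeR (FDR 0.039), in the test against a log2 fold change of 1 (adjusted p = 0.742) and without control replicate 3, CK666 replicate 1, siArp4 replicate 2, siArp4 replicate 3 or siArp4+CK666 replicate 1 (adjusted p from 0.0103 to 0.022). CK666 libraries were above those without it in 3 of 3 libraries in both settings. In both cases transfection and knockdown cannot be told apart.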

How the results depend on the processing

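Of the alternatives for single members, 688 kept direction and side of the threshold, 29 lost a call, 12 gained a call and 15 changed sign. The sign changes were all in differences that were not called. For Angptl2 in CK666 against control the replicate block and the fit of only the 2 groups both gave 0.00. With single libraries left out, that value ran from -0.07 to 0.16, Angpt2 in CK666 from -0.25 to 0.56, Gdf15 in CytoD from -0.08 to 0.07, Angptl6 in CytoD from -0.02 to 1.18, Angptl2 in CK666 against CytoD from -0.19 to 0.04, Angpt1 in siArp4 from -0.38 to 0.22, Angpt2 in siArp4 from -0.73 to 0.27 and Gdf15 in siArp4+CK666 against siControl from -0.64 to 0.62. The count of members called with single libraries left out ran from 3 to 4 in CK666 against control and against CytoD, from 0 to 1 in CytoD, from 2 to 3 in siArp4 and in siArp4+CK666 against siControl, from 0 to 3 in siArp4+CK666 against siArp4 and from 1 to 3 in the interaction. With no fold minimum CytoD had 1 member called. The test against a log2 fold change of 1 called 0 members in siArp4, in siArp4+CK666 against siArp4 and in the interaction. edgeR called 0 members in siArp4+CK666 against siArp4 and 1 in the interaction. The causes were not tested.

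Over all genes, without the minimum fold 4381 genes were called in CK666, 4067 in CytoD, 4779 in CK666 against CytoD, 3867 in siArp4, 4602 in siArp4+CK666 against siControl, 1395 in siArp4+CK666 against siArp4 and 1054 in the interaction, against 1599, 1251, 1778, 2494, 3150, 811 and 595. The test against a log2 fold change of 1 called 349, 147, 438, 431, 792, 145 and 58 in that order. edgeR called 466 in siArp4+CK666 against siArp4 and 384 in the interaction. Deviations of libraries with the same replicate number had r from -0.15 to 0.18 in the first and -0.49 to 0.71 in the second experiment, so not every pair was over 0.1. In each experiment 3 of 9 libraries had their highest r, over both other groups, with a library of their own number, and the numbers were not treated as pairs. With the replicate block the members called stayed at 4, 0, 4, 2, 3, 2 and 2, and genes called were 1497, 1172, 1687, 2390, 3091, 769 and 545. Depth limits Angpt2, Fgf21 and Angptl6 outside the CK666 libraries, where no library exceeded 77.4 normalized counts.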

Other observations

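Over all tested genes, 11.0% were called in CK666, 9.12% in CytoD, 16.2% in siArp4 and 20.4% in siArp4+CK666, each against its control. The counts of the lists below were not tested against these shares. Other secreted factors linked to stress were called in both directions with CK666. Of 12 listed genes 9 were tested in CK666 against control, with 2 higher and 2 lower by DESeq2, and 1 higher and 2 lower by edgeR. Stc2, a stanniocalcin, was higher (1.05, adjusted p = 5.38e-14), and Fgf2 (-1.29, adjusted p = 1.52e-13) and Gdf11, a relative of Gdf15 (-1.12, adjusted p = 1.06e-13), were lower. The median log2 fold change was -0.19, beside 0.01 over all tested genes. In CytoD 1 of 8 tested was higher and 0 lower by DESeq2 and edgeR, with 2 lower at an unadjusted p under 0.05. Fgf2 was lower in siArp4 (-1.57, adjusted p = 0.00025) and in siArp4+CK666 (-2.21, adjusted p = 8.6e-08) against siControl, where Stc2 was higher in siArp4+CK666 (1.01, adjusted p = 8.28e-06). Of 9 tested, those comparisons held 1 call and 2 calls by DESeq2. edgeR called 0 in siArp4, and 0 higher and 1 lower in siArp4+CK666. The Fgf2 call in siArp4 and the Stc2 call were thus lost in edgeR.

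Gdf15 is also a known p53 target. Of 10 p53 targets, all tested, 1 was higher in CK666 against control (Trp53inp1, 1.01, adjusted p = 3.36e-09), where the median was 0.25. In CytoD 2 were higher, Trp53inp1 (1.78, adjusted p = 4.88e-27) and Sesn1 (1.09, adjusted p = 6.56e-10). In siArp4 3 were lower, Phlda3 (-1.88, adjusted p = 0.000119), Eda2r (-1.69, adjusted p = 4.52e-05) and Sesn1 (-1.04, adjusted p = 2.54e-12), with a median of -0.74. In siArp4+CK666 against siControl 2 were lower by DESeq2, Sesn1 (-2.00, adjusted p = 1.09e-39) and Eda2r (-1.16, adjusted p = 0.00649), and 1 by edgeR.

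Of 20 PPAR, hypoxia and glucocorticoid genes, the pathways known for Angptl4, 17 were tested in the second experiment. In siArp4 against siControl 4 were higher and 2 lower, all of them hypoxia genes. Epas1 was lower (-3.33, adjusted p = 4.85e-10) at a mean of 38 normalized counts. The largest changes at a mean of at least 100 were in Adm, adrenomedullin (3.17, adjusted p = 2.69e-50), Ndrg1 (-3.08, adjusted p = 4.52e-19) and Egln3, a prolyl hydroxylase that acts on HIF (2.41, adjusted p = 1.17e-33). No PPAR or glucocorticoid gene was called there. Under the minimum fold, Pparg (-0.64, adjusted p = 0.000563), Ppard (-0.75, adjusted p = 0.000764) and Fabp4 (-0.99, adjusted p = 8.97e-07) were lower and Fkbp5 higher (0.52, adjusted p = 0.000567). In siArp4+CK666 against siControl 5 were higher and 2 lower, led by Ndrg1 (-4.70, adjusted p = 4.7e-31), Egln3 (2.49, adjusted p = 2.02e-36) and Adm (2.45, adjusted p = 4.72e-30). edgeR called 4 higher and 2 lower there. In CK666 against control 3 were higher and 3 lower of 19 tested, among them Ndrg1 (1.44, adjusted p = 2.16e-08), Per1 (-1.29, adjusted p = 1.1e-06) and Bnip3 (-1.25, adjusted p = 1.29e-26). edgeR called 3 higher and 2 lower in that comparison. In CytoD 1 was lower, Fkbp5 (-1.09, adjusted p = 9.45e-22).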
